A study of Sus scrofa with 40 samples.

Results

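The cytosolic ribosomal proteins are the proteins of the ribosome that works outside the mitochondria. Their genes were taken from the array by name, as rows that were not control spots and whose gene name was RPL or RPS with a number, or RPLP0, RPLP1, RPLP2 or RPSA. This rule gave 52 genes of the 34743 gene names on the array. The array follows them with 73 identifiers, each of which is 1 deposited transcript or sequence tag, of 35955 in all. The names gave 24 genes of the small subunit, 23 of the large subunit, 2 of the stalk and 3 paralogs. RPLP0 carried no such name on the array, and its identifier NM_001098598 was assigned to it through RefSeq and is described beside the members without being counted among them.

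The samples were kidney biopsies of Large White pigs aged 3 months, and the study asked how gene expression in the kidney moves through the ischemia that precedes transplantation. Control kidneys (Ctl) gave their biopsies right after removal. Warm ischemia (WI) kidneys were clamped and held for 60 min at 37 °C before sampling. The cold storage kidneys had the same warm ischemia, were flushed with University of Wisconsin solution and were stored at 4 °C, with biopsies of each of these 5 kidneys at 6 h (WI+CS6h) and at 24 h (WI+CS24h). Cortex (C) and corticomedullary junction (CMJ) were sampled from 15 kidneys in all, which gave 8 groups of 5 arrays with 1 dye. Every sample was frozen before any return of blood flow. The control kidneys were spared both warm ischemia and storage, and no group had cold storage without warm ischemia.

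Each ribosome has a small subunit, which reads the messenger RNA, and a large subunit, which joins the amino acids. The acidic proteins RPLP1 and RPLP2 sit on RPLP0 and form the stalk of the large subunit, where translation factors bind. The messenger RNAs of these proteins are among the most abundant of a cell, and most begin with a run of pyrimidines, the 5' terminal oligopyrimidine (TOP) motif, through which mTOR signalling controls their translation. Their messenger RNA level and their translation can therefore move apart, and an array measures the level alone. In bulk tissue, fewer cells of a type and less RNA per cell cannot be told apart.

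A probe on this array was a DNA oligonucleotide of 60 bases. The probes below are shown because the results turn on their genes. The first is that of RPL14 which lies apart from the other 4 probes of this transcript, and the next 3 read the markers RPL3, RPS6 and RPLP0, with the first base of each probe in its transcript after the gene. The last is a probe of RPL5, whose signal set 4 arrays apart.
RPL14, from base 396: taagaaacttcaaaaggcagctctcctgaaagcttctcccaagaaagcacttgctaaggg
RPL3, from base 489: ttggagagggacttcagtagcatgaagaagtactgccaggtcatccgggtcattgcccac
RPS6, from base 1033: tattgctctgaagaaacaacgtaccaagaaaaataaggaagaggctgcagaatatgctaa
RPLP0, from base 549: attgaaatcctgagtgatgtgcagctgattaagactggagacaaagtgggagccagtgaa
RPL5, from base 372: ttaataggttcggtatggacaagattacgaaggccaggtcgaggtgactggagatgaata

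The other 4 probes of RPL14 began at bases 615, 621, 628 and 637 and overlapped. A stretch of each is shown, ending in the 8 bases in capitals that all 4 share, because it shows that these probes read the same end of the transcript and are not independent readings. The bases before the capitals are not identical between the probes, and the effect of this on their signal was not tested.
RPL14, probe from base 615: gctcaaaagcatctggcaagaaAGCATGAG
RPL14, probe from base 621: gctccaaaagcatctggcaagaAGCATGAG
RPL14, probe from base 628: gctccaaaagcatctggaagaaAGCATGAG
RPL14, probe from base 637: gcatctggcgagaaAGCATGAG
The single probe of RPS15A began with an unbroken pyrimidine run, TTTCTCTTTCC, at base 511 of its sequence. Base 511 is not the start of that sequence, so the run is not shown to be a TOP motif.

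Values are log2 of the background-corrected signal after quantile normalization over the 40 arrays, and 1 unit is a doubling. A difference was called when limma gave an adjusted p under 0.05 and a log2 fold change of at least 0.5 in size. The members lay high on this scale and varied little. Of the 73 identifiers, 51 had a mean of 13 or more and 66 were well above background on all 40 arrays. The median SD within a group was 0.114 over the members and 0.262 over all identifiers. Among identifiers at 13 or more, it was 0.1 for the 51 members and 0.172 for all 536. Together the members held between 8.78% and 11.6% of the summed intensity of an array. The brightest spots reached the ceiling of the scanner. 13 identifiers were saturated on at least 1 array, and those of RPS20, RPLP1 and RPS28 (NM_001001587) on every array, so a fold change of these 3 was compressed. The share of spots well above background ran from 57.01% to 69.91% over the arrays. Each group was spread over both scan days, with 2 or 3 arrays of a group on each. Proximal tubule markers were bright in every group, with lowest summed signals between 29000 and 46600, and leukocyte markers stayed between 121 and 275. Some lists lay higher in the median in WI-CMJ, although limma called none of their identifiers in WI-CMJ versus Ctl-CMJ. The summed signal of 4 adipocyte markers had a median of 431 in WI-CMJ (158 to 782), compared with 188 in Ctl-CMJ and with 196 and 212 in CMJ after 6 h and 24 h of cold storage. That of 3 fibroblast markers was 5120 in WI-CMJ and 3820 in Ctl-CMJ, with overlapping arrays. HBB, the erythrocyte marker, was dim throughout, with medians of 22.6 in WI-C and 16.7 in WI-CMJ and of 3.44 and 5.61 in the controls, and it was not called either. In cortex the adipocyte and fibroblast sums had medians of 168 and 2860 in WI-C, compared with 173 and 3090 in Ctl-C. Between tissues, WI-CMJ versus WI-C, limma called 2 ADIPOQ identifiers (3.78 and 3.49) and 1 of COL1A2 (1.51), and SLC12A1 of the thick ascending limb was called higher in CMJ in controls (1.24) and after WI (1.16). These 2 ADIPOQ identifiers were well above background on 3 and 4 of the 40 arrays and had a mean of 0.58 in WI-C. The other ADIPOQ identifier, well above background on 34 arrays, was not called. The part of these cells in the comparisons with WI and between tissues was not tested.

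The cold storage arrays numbered 5 stood apart. Arrays carry a number from 1 to 5 within a group, and each cold storage kidney gave its biopsies at both times according to the labels. The labels do not say that a number joins the cortex and CMJ of 1 kidney. On the 4 cold storage arrays numbered 5, 21 of the 73 members were lower than on the other 4 arrays of each group, and 3 were higher than on them. Over all identifiers, the shares were 5.43% and 6.12%. For each of the numbers 1 to 4, no member was at 1 end of all 4 cold storage groups. Among the WI arrays, which hold 1 cortex and 1 CMJ array of each number, those numbered 4 were the lowest of both groups for 22 of the 73 members, beside 4.61% of all identifiers, and those numbered 2 were the highest of both for 20, beside 6.87%. Single arrays of the WI groups thus also held many members at 1 end, over 2 groups in place of 4. Among identifiers at 13 or more, 37.3% of the 51 members and 14.5% of the 530 identifiers measured on every array were lowest on the cold storage arrays numbered 5 in all 4 groups.

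RPL13A, a large subunit protein that also has a role in silencing inflammatory transcripts, differed most. Its signal on the array numbered 5 was 12.43 in WI+CS6h-C, 12.6 in WI+CS24h-C, 12.78 for WI+CS6h-CMJ and 12.5 for WI+CS24h-CMJ. The other 16 cold storage arrays lay between 13.74 and 14.15, and the control and WI arrays between 13.68 and 14.02, so these 4 arrays stood alone among all 40. The gap to the mean of the other 4 arrays ran from -1.48 to -1.09, and its 2 probes gave -1.35 and -1.33. These begin at bases 1019 and 1022, share a run of 31 bases and amount to 1 reading.

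RPL5, which together with RPL11 can bind MDM2 and so stabilize p53, gave the same picture. Its signal on the arrays numbered 5 was 13.87, 13.8, 13.77 and 13.73 in the order above, and no other array was under 14.33. All of its 18 probes were lower on these arrays, with mean gaps over the 4 groups between -0.89 and -0.52. RPL6, a large subunit protein, was at 13.3, 13.19, 13.17 and 13.12 there, and no other array was under 13.72. Its 13 probes differed by -0.84 to -0.24. RPL5 and RPL6 were thus lower on these arrays across their whole set of probes.

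The members that were higher on the arrays numbered 5 were the RPL12 identifier AK394884, RPL7L1, a paralog of RPL7, and the bright RPS23 identifier, with mean gaps of 0.92, 0.49 and 0.23. The number of lower members depended on the scaling. When each array was scaled by its 75th percentile in place of quantile normalization, 3 of the 73 members were lowest in all 4 groups, and these were RPL13A with a mean gap of -1.14, RPL5 with -0.56 and the dim RPS19 identifier with -0.57. Over all identifiers 5.15% were lowest in this way, so under this scaling the number of low members was no larger than the share over the array, and the members' median gap was 0.011. RPL6 had a mean gap of -0.43 under this scaling and was not lowest in each group. The arrays numbered 5 lay on 4 different slides and both scan days. On these arrays the summed proximal tubule markers were between 29000 and 32500, compared with 34900 to 59900 on the other 16 cold storage arrays, and the summed adipocyte markers were between 281 and 342, compared with 157 to 254. The other lists overlapped. Their medians here and on the other 16 arrays were 3160 and 4100 for endothelium, 6490 and 8030 for thick ascending limb and collecting duct, and 3310 and 3980 for fibroblasts. They were 586 and 418 for skeletal muscle, 26.7 and 3.09 for HBB, and 142 and 151 for leukocytes. The part of cell composition in these gaps was not tested. Results that use cold storage groups are given with these arrays and, where it matters, without them.

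**Figure D1:**
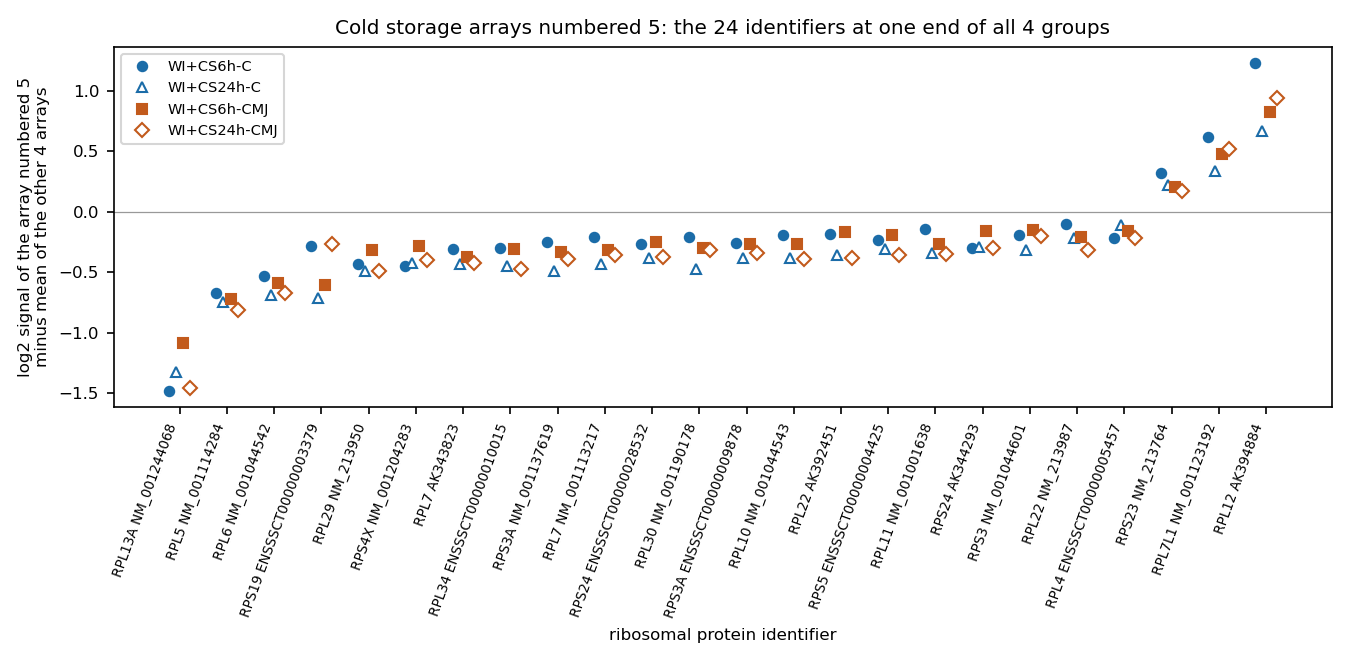
Difference in log2 signal (vertical axis) between the cold storage array numbered 5 and the mean of the other 4 arrays of its group, for the 24 ribosomal protein identifiers that were lowest or highest on that array in all 4 cold storage groups (horizontal axis, ordered by mean difference). Symbols stand for the 4 groups. RPL13A lies between -1.48 and -1.09, RPL5 and RPL6 follow, and RPL12 (AK394884), RPL7L1 and RPS23 lie above 0.

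Warm ischemia alone left the members close to control. In WI-C versus Ctl-C none of the 73 identifiers was called by limma, where 0.0946% of all identifiers were called, and 2 members had an unadjusted p under 0.05. Here and below, the percentage of all identifiers called cannot be set against a count at an unadjusted p, which is a looser rule. The members' median log2 fold change was 0.047, beside 0.008 over all identifiers, and 56 of the 73 were above 0. Within scan days 1 and 2 this median was 0.006 and 0.105. It ran from -0.009 to 0.164 over the alternatives other than leaving out 1 array. In WI-CMJ versus Ctl-CMJ 1 member was called, the dim RPL11 identifier AK400685 described below, where 0.687% of all identifiers were called, and 7 had an unadjusted p under 0.05. The median there was 0.007, beside -0.011 over all identifiers. The precision was enough to bound most members. The 95% confidence interval of the fold change lay within 0.5 of 0 for 58 members in cortex and 60 in CMJ, beside 39.7% and 46.2% of all identifiers. For saturated identifiers such an interval does not bound the change, since the ceiling of the scanner compresses it.

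After cold storage the cortex again showed almost no called member. In WI+CS6h-C versus Ctl-C 1 of 73 was called, the dim RPS23 identifier FD588582, beside 4.02% of all identifiers, and 6 had an unadjusted p under 0.05. In WI+CS24h-C versus Ctl-C none was called by limma, beside 2.5%, and 3 had an unadjusted p under 0.05. The medians were 0.016 and 0.013, beside 0.047 and 0.008 over all identifiers. Versus WI-C, none was called by limma after 6 h, beside 1.93% of all identifiers, or after 24 h, beside 1.2%, with 4 members at an unadjusted p under 0.05 in each. The median of the members in cortex depended on the scaling. With the 75th percentile scaling it was 0.145 after 6 h and 0.129 after 24 h versus Ctl-C, and 0.164 in WI-C, beside 0.083, 0.008 and 0.041 over all identifiers. It also turned with the scan day, since the 24 h value versus Ctl-C was 0.086 on day 1 and -0.089 on day 2.

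In CMJ the members lay slightly lower after cold storage. In WI+CS6h-CMJ versus Ctl-CMJ none of the 73 was called by limma, beside 3.19% of all identifiers, and 8 had an unadjusted p under 0.05. The median was -0.092, beside -0.008 over all identifiers, and 16 of 73 were above 0. In WI+CS24h-CMJ versus Ctl-CMJ 1 was called, again the RPL11 identifier AK400685, beside 3.65% of all identifiers, and 7 had an unadjusted p under 0.05. The median was -0.069, beside 0.004, and 15 of 73 were above 0. Versus WI-CMJ the medians were -0.09 and -0.076, and 1 member was called at each time, the RPL14 identifier AK348520. Of all identifiers, 2.78% were called after 6 h and 2.85% after 24 h. At an unadjusted p under 0.05 there were 12 and 10 members, a looser rule that these percentages do not match. Among identifiers at 13 or more, the median in WI+CS6h-CMJ versus Ctl-CMJ was -0.102 for the members and -0.017 for all 536. Both subunits took part in this shift. With the brightest identifier of each gene, 5 of 24 small subunit genes and 2 of 23 large subunit genes were above 0 after 6 h, with medians of -0.103 and -0.108. Within scan days 1 and 2 the medians versus Ctl-CMJ were -0.106 and -0.07 after 6 h, and -0.072 and -0.068 after 24 h. With quantile normalization within each group they were -0.017 after 6 h and -0.01 after 24 h, beside 0.029 and 0.12 over all identifiers, so the size of the medians depended on the normalization. Some markers of other kidney cells were called in the same comparisons. Both KDR identifiers (endothelium) were higher versus Ctl-CMJ, by 0.53 and 0.59 after 6 h and by 0.63 and 0.65 after 24 h, and SCNN1G (collecting duct) by 0.66 and 0.85. Versus WI-CMJ, SCNN1G was called higher, by 0.79 and 0.97, and AQP3, another collecting duct marker, lower, by -0.88 at both times. The 5 identifiers of their list had medians of -0.43 and -0.28 versus Ctl-CMJ, so this list did not move 1 way. The part of cell composition in the medians was not tested. These comparisons share their control or WI arrays.

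Without the cold storage arrays numbered 5, the CMJ medians versus Ctl-CMJ were -0.072 after 6 h and -0.035 after 24 h, and versus WI-CMJ -0.071 and -0.017. The number of members above 0 became 18 and 25 versus Ctl-CMJ, and 18 and 22 versus WI-CMJ. The 24 h medians thus rested in good part on the arrays numbered 5. In cortex the medians versus Ctl-C became 0.04 and 0.071. The median of WI+CS24h-C versus WI-C moved from -0.026 to 0.017 and so changed sign. The 95% confidence interval of a member had a median reach of 0.169 on each side in CMJ and 0.199 in cortex, so a shift of this size could not be detected in a single member.

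**Figure D2:**
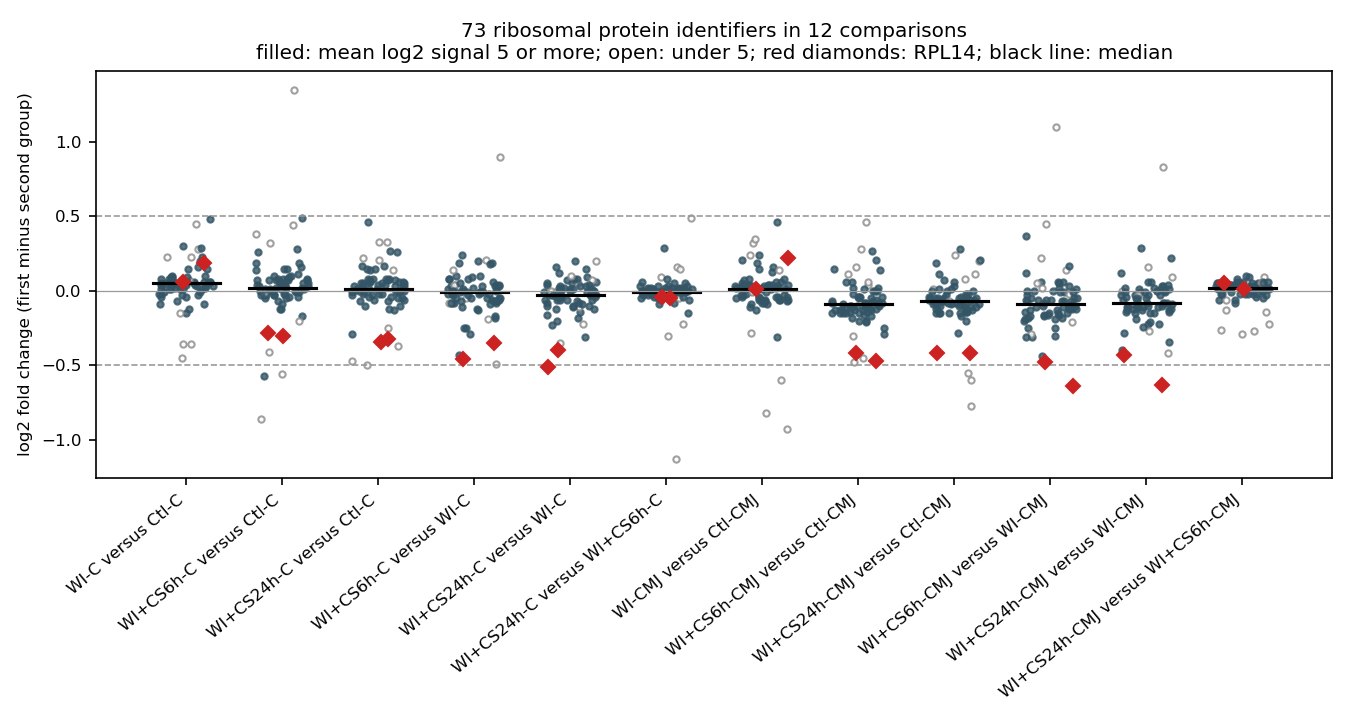
Log2 fold change (vertical axis) of the 73 ribosomal protein identifiers in 6 cortex and 6 CMJ comparisons (horizontal axis), with 1 point per identifier and a black line at the median. Open points have a mean log2 signal under 5, red diamonds are the RPL14 identifiers, and dashed lines mark 0.5 on either side of 0. Most points lie near 0 and the widest ones are open, while RPL14 lies lowest among the brightest identifiers of each gene in the comparisons of cold storage with Ctl or WI.

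No member was called between the 2 storage times. In WI+CS24h-C versus WI+CS6h-C none of the 73 was called by limma, beside 0% of all identifiers, and none had an unadjusted p under 0.05. In WI+CS24h-CMJ versus WI+CS6h-CMJ none was called, beside 0.00278%, and again none had an unadjusted p under 0.05. The interval lay within 0.5 of 0 for 64 and 66 members, beside 42.9% and 56.6% of all identifiers. These fits do not use that the kidneys were the same at both times. With the array number as a block in a fit of the 2 storage groups alone, none was called either by limma, beside 0% of all identifiers, 1 member (1.37%) in cortex and 0 in CMJ had an unadjusted p under 0.05, beside 1.74% and 4.79% of all identifiers, and the interval lay within 0.5 of 0 for 62 and 69 members. The RPL14 identifier NM_001097478 was then 0.05 higher after 24 h in CMJ (95% CI -0.07 to 0.16, limma adjusted p = 0.91).

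RPL14, a large subunit protein, was the exception among the bright members. Its identifier NM_001097478, read by 5 probes, was lower after cold storage in both comparisons of CMJ. Its signal was 13.52, 13.62, 13.69, 13.56 and 13.37 in Ctl-CMJ and 13.57, 13.65, 13.6, 13.33 and 13.65 in WI-CMJ. It was 13, 13.07, 13.07, 13.14 and 13.13 in WI+CS6h-CMJ, compared with 13.05, 13.17, 13.14, 13.16 and 13.13 in WI+CS24h-CMJ. All 10 cold storage arrays lay under all 10 arrays without cold storage, and the array numbered 5 was no different from the others. The 10 cold storage arrays come from 5 kidneys sampled at both times, so the 6 h and 24 h values are not independent. The log2 fold change in WI+CS6h-CMJ versus Ctl-CMJ was -0.47 (SE 0.07, 95% CI -0.62 to -0.32, limma adjusted p = 0.000751), and after 24 h it was -0.42 (limma adjusted p = 0.00165). Versus WI-CMJ it was -0.48 (limma adjusted p = 0.000783) and -0.43 (limma adjusted p = 0.00194). These falls passed the test but stayed under the fold limit of 0.5. They were -0.48, -0.42, -0.49 and -0.43 without the arrays numbered 5. Within scan days 1 and 2 the WI+CS6h-CMJ versus Ctl-CMJ difference of RPL14 was -0.43 (limma adjusted p = 0.573) and -0.5 (limma adjusted p = 0.031), with 2 or 3 arrays of a group on each day.

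In cortex the RPL14 signal was 13.43, 13.44, 13.39, 13.67 and 13.55 in Ctl-C and 13.56, 13.81, 13.38, 13.31 and 13.72 in WI-C. It was 13.29, 13.09, 13.22, 13.09 and 13.31 in WI+CS6h-C, compared with 13.15, 13.11, 13.1, 13.39 and 13.02 in WI+CS24h-C. The cold storage arrays lay lower here too, but in WI+CS24h-C the highest array reached the lowest control array. The differences did not pass the test, with -0.3 (limma adjusted p = 0.0993) and -0.34 (limma adjusted p = 0.0783) versus Ctl-C, and -0.35 (limma adjusted p = 0.074) and -0.4 (limma adjusted p = 0.0564) versus WI-C. Within scan days 1 and 2 the 24 h difference was -0.19 and -0.49 versus Ctl-C, and -0.2 and -0.7 versus WI-C. Some alternatives passed, with a lowest limma adjusted p of 0.0299 after 24 h versus Ctl-C. Versus WI-C the lowest were 0.0269 after 6 h and 0.0159 after 24 h. The response in CMJ minus that in cortex was -0.17 after 6 h (95% CI -0.42 to 0.07, limma adjusted p = 0.836), so a difference between the tissues was not shown.

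The second RPL14 identifier, AK348520, was a dimmer tag with 1 probe. Its signal was 8.95, 9.07, 9.02, 8.71 and 9 in WI-CMJ, 8.41, 8.46, 8.15, 7.99 and 8.54 in WI+CS6h-CMJ, compared with 8.18, 8.65, 8.09, 8.12 and 8.55 in WI+CS24h-CMJ. All cold storage arrays lay under all WI-CMJ arrays. It fell by 0.64 after 6 h (SE 0.14, limma adjusted p = 0.013) and fell by 0.63 after 24 h (limma adjusted p = 0.0128), and both were called. Within scan day 1 the values of AK348520 were -0.41 and -0.48 and were not called, and within scan day 2 they were -0.82 and -0.85 and were called. The calls also ended at both times with normexp background correction (-0.45 and -0.48), after 6 h with slide as a term (limma adjusted p = 0.0912) or the share of spots above background as covariate (limma adjusted p = 0.0517), and after 24 h with the compared groups alone (limma adjusted p = 0.051). Versus Ctl-CMJ, with 8.76, 8.8, 8.9, 8.84 and 8.36, both differences were -0.42 and did not pass the test (limma adjusted p = 0.0951 and 0.0939). The 2 identifiers of RPL14 therefore lay on the same side after cold storage. All 5 probes of NM_001097478 were lower in WI+CS6h-CMJ versus Ctl-CMJ, between -0.53 and -0.37, including the 1 that began at base 396, and between -0.36 and -0.19 in the same comparison of cortex.

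**Figure D3:**
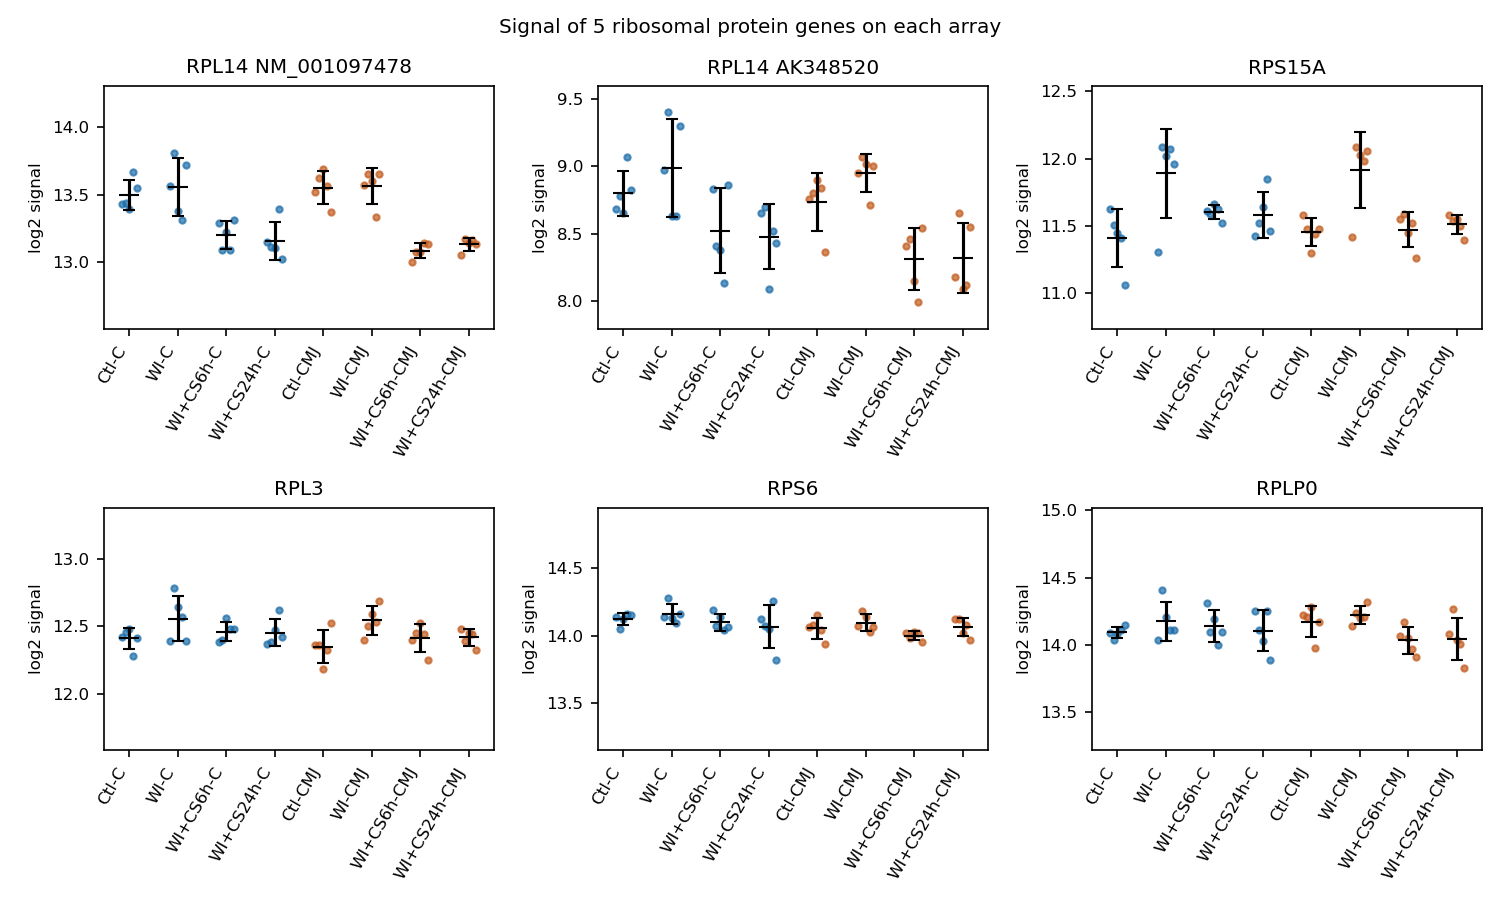
Log2 signal (vertical axis) of RPL14 (2 identifiers), RPS15A, RPL3, RPS6 and RPLP0 in the 8 groups (horizontal axis), with 1 point per array, a bar at the mean and error bars of 1 SD over 5 arrays, and the same height of axis in every panel. RPL14 NM_001097478 lies between 13 and 13.17 on the CMJ arrays after cold storage and between 13.33 and 13.69 on those without it.

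Among the small subunit proteins, RPS6, the substrate of S6 kinase, stayed level. In CMJ its mean was 14.05 ± 0.08 (SD, n = 5) in controls, 14.1 ± 0.06 after WI, 14 ± 0.03 after 6 h of cold storage and 14.06 ± 0.07 after 24 h. In cortex the means lay between 14.06 and 14.16. Its differences from control lay between -0.06 and 0.04 in the 6 comparisons and did not pass the test. The widest spread was in WI+CS24h-C, where the array numbered 5 had the lowest value of RPS6, 13.82.

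RPS15A, a small subunit protein, was higher on most WI arrays. Its signal was 11.63, 11.51, 11.45, 11.41 and 11.06 in Ctl-C and 11.31, 12.09, 12.02, 12.07 and 11.96 in WI-C. In CMJ it was 11.58, 11.48, 11.3, 11.44 and 11.48 in Ctl-CMJ and 11.42, 12.09, 12.03, 11.98 and 12.06 in WI-CMJ. In both tissues 4 of the 5 WI arrays lay above every control array, and the array numbered 1 lay among the controls. The difference was 0.48 in cortex (SE 0.14, limma adjusted p = 0.516) and 0.46 in CMJ (SE 0.11, limma adjusted p = 0.0514). Without the array numbered 1 of WI it was 0.62 (limma adjusted p = 0.0192) and 0.58 (limma adjusted p = 0.000641), and both were called. With all arrays kept, the CMJ difference of RPS15A was also called with quantile normalization within each group (0.51, limma adjusted p = 0.035). Within scan days 1 and 2 the difference was 0.26 and 0.7 in cortex and 0.44 and 0.54 in CMJ, and the last of these was called (limma adjusted p = 0.0361).

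After cold storage RPS15A was back near control. Its signal was 11.55, 11.59, 11.45, 11.52 and 11.26 in WI+CS6h-CMJ, compared with 11.58, 11.54, 11.55, 11.5 and 11.4 in WI+CS24h-CMJ. It fell by 0.44 versus WI-CMJ after 6 h (limma adjusted p = 0.027) and fell by 0.4 after 24 h (limma adjusted p = 0.0416), under the fold limit. Without the WI-CMJ array numbered 1 the values were -0.57 and -0.53, and both were called (limma adjusted p = 0.000409 and 0.000694). Without the cold storage arrays numbered 5 the values were -0.39 (limma adjusted p = 0.0572) and -0.37 (limma adjusted p = 0.067), which did not pass. The falls were not firm to the loss of any single array either, since the 24 h value lost its adjusted p under 0.05 in 9 of the 10 fits that left out 1 array and the 6 h value in 6 of 10. In cortex its cold storage arrays lay between 11.43 and 11.85. RPS15A was read by 1 probe, so no second probe was at hand to set beside these values.

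RPS3A, a small subunit protein, had 3 identifiers. The dim tag GH228991, at 7.61, fell by 0.34 in WI+CS24h-CMJ versus WI-CMJ (SE 0.09, limma adjusted p = 0.0353), and after 6 h the difference was -0.31 (limma adjusted p = 0.051). The bright identifier NM_001137619 differed by -0.14 and -0.18 in the same comparisons (limma adjusted p = 0.508 and 0.325). GH228991 had also been 0.24 higher in WI-CMJ than in Ctl-CMJ (limma adjusted p = 0.238), and versus Ctl-CMJ its cold storage values differed by -0.08 and -0.1.

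Among the large subunit proteins, RPL3, which lies near the peptidyl transferase centre, was 12.35 ± 0.12 (SD, n = 5) in Ctl-CMJ and 12.54 ± 0.11 in WI-CMJ, a difference of 0.19 (limma adjusted p = 0.247). In both cold storage groups of CMJ the mean was 12.41. In cortex the means were 12.41, 12.55, 12.46 and 12.45 in the order Ctl, WI, WI+CS6h and WI+CS24h, and the ranges of the arrays overlapped. None of its differences from control passed the test.

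RPLP0, the base of the stalk, was read by 13 probes. In CMJ its mean was 14.17 ± 0.12 (SD, n = 5) in controls, 14.22 ± 0.07 after WI, 14.04 ± 0.1 after 6 h of cold storage and 14.05 ± 0.16 after 24 h. The 2 cold storage groups lay lower and overlapped the control arrays. The difference was -0.19 in WI+CS6h-CMJ versus WI-CMJ (limma adjusted p = 0.24) and -0.16 without the arrays numbered 5. In cortex its differences from control were 0.08, 0.04 and 0.01. The saturated stalk proteins RPLP1 and RPLP2 lay between -0.07 and 0.03 from Ctl-CMJ, values that the ceiling of the scanner compresses.

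The lists of probes show how even these small differences were. In WI+CS6h-CMJ versus Ctl-CMJ all 18 probes of RPL5 were lower, between -0.19 and -0.06, and all 13 probes of RPL6, between -0.32 and -0.06. All 13 probes of RPLP0 were lower as well, between -0.18 and -0.05. Without the arrays numbered 5, 8 of the 18 RPL5 probes were lower, between -0.08 and 0.09, and after 24 h none was. All 13 RPL6 probes, between -0.17 and -0.01, and all 13 RPLP0 probes, between -0.15 and -0.02, were still lower after 6 h. The probes of RPL14 lay between -0.56 and -0.37. For RPL5 the shift of the group mean thus rested on the array numbered 5, and for RPL14 it did not. Probes of 1 identifier overlap in part, with 230 of 732 such pairs starting under 60 bases apart, and are not replicates. RPL37A, a large subunit protein, had probes that disagreed, with -0.04 at base 216 and 0.33 at base 266 in the same comparison.

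**Figure D4:**
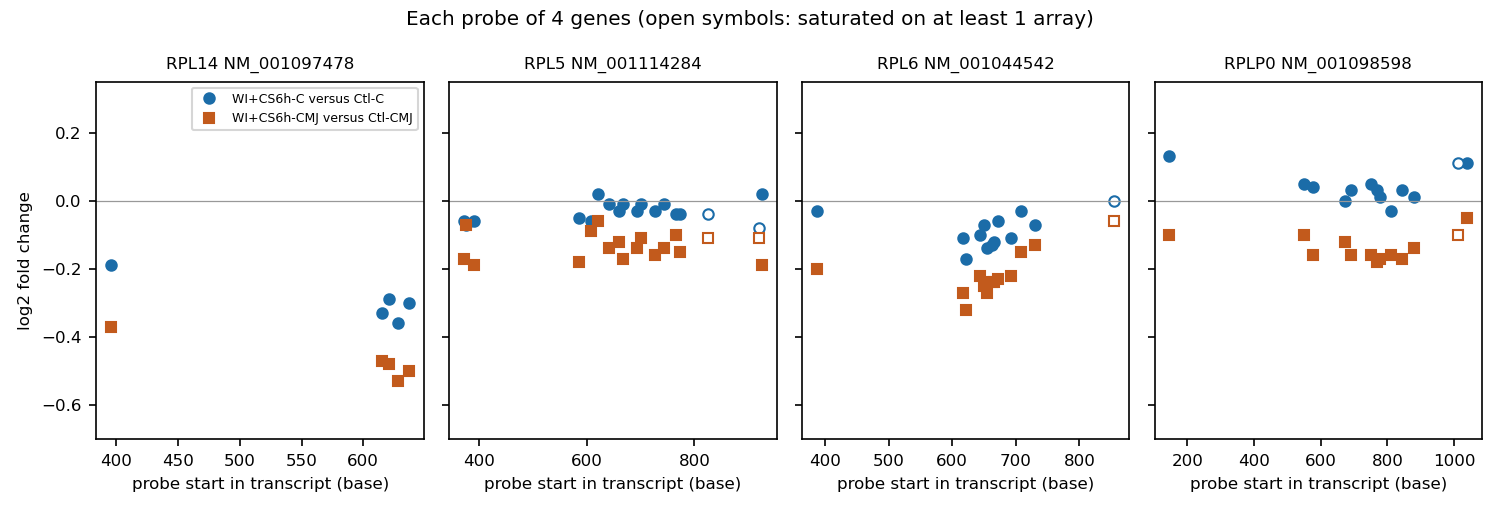
Log2 fold change in WI+CS6h versus Ctl (vertical axis) of each probe of RPL14, RPL5, RPL6 and RPLP0 by the base of the transcript at which the probe begins (horizontal axis), for cortex and CMJ, all 5 arrays of each group included. Open symbols were saturated on at least 1 array. In CMJ the 5 RPL14 probes lie between -0.53 and -0.37, and those of RPL5 between -0.19 and -0.06.

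The called members besides RPL14 were dim tags whose genes had a brighter identifier that was not called. For RPL11, the tag AK400685 was 4.82, 4.32, 4.45, 4.46 and 4.62 in Ctl-CMJ, 4.03, 3.7, 3.93, 4.05 and 3.97 in WI-CMJ, and 4.12, 3.52, 4.01, 4.05 and 3.98 in WI+CS24h-CMJ. Both groups lay wholly under control, and the tag fell by 0.6 in each (SE 0.13, limma adjusted p = 0.0399 in WI-CMJ and 0.0111 in WI+CS24h-CMJ). The bright RPL11 identifier NM_001001638, at 14.32, differed by 0.01 and -0.07 in these comparisons. With normexp background correction, whose offset of 50 compresses low signals, the values of AK400685 were -0.07 and -0.09 and neither was called. In 9 of the 10 fits that left out 1 array of either group, the WI-CMJ value of AK400685 was not called.

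For RPS23, which lies at the decoding centre of the small subunit, the tag FD588582 was 3.53, 3.3, 3.62, 3.41 and 2.96 in Ctl-C and 1.93, 2.84, 2, 3.08 and 2.69 in WI+CS6h-C. The groups overlapped, and the tag fell by 0.86 (SE 0.24, limma adjusted p = 0.0459). This tag was well above background on 36 of the 40 arrays. The bright RPS23 identifier NM_213764, at 14.78, differed by -0.04. With normexp background correction FD588582 differed by -0.04, and in 7 of the 10 fits that left out 1 array of either group it was not called. Without the cold storage arrays numbered 5 it was not called in this comparison, and it was called in WI+CS24h-CMJ versus Ctl-CMJ at -0.88 (limma adjusted p = 0.0423), where the value with all arrays was -0.77 (limma adjusted p = 0.0796). Its widest difference was in WI-CMJ versus Ctl-CMJ. The signal of FD588582 there was 3.48, 3.55, 3.28, 3.29 and 3.59 in Ctl-CMJ and 2.95, 2.22, 2.55, 2.59 and 2.24 in WI-CMJ. The groups did not overlap, and the difference of -0.93 did not pass the test (limma adjusted p = 0.0808), but it was called within scan day 2, with the compared groups alone and without the WI-CMJ array numbered 1.

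The widest differences by gene in most comparisons belonged to such dim tags. RPS29 (DN103165, mean 1.57) was well above background on 3 of 40 arrays, and its difference in WI+CS6h-C versus Ctl-C, 1.35 (limma adjusted p = 0.504), ran from -0.2 to 1.94 when 1 array was left out, so that it has no settled sign. The same holds for its difference of -1.13 between the storage times in cortex, which ran from -1.72 to 0.43. RPL32 (AK234017, mean 2.71, well above background on 25 arrays) differed by -0.55 in WI+CS24h-CMJ versus Ctl-CMJ (limma adjusted p = 0.086). RPS28 (CK459904, mean 0.19, well above background on 0 arrays) and RPS19 (mean 4.67) lay low as well. With the brightest identifier of each gene, no gene was called in any of these 12 comparisons, and the values versus Ctl-CMJ ran from -0.47, which was RPL14, to 0.27 after 6 h. Several of these brightest identifiers, such as those of RPS28, RPS29 and RPL32, were saturated on most arrays, which compresses their differences. Among bright members, RPL37A differed by 0.22 in WI+CS24h-CMJ versus WI-CMJ, RPL12 by -0.2 in WI+CS6h-CMJ versus Ctl-CMJ, and RPL22 (AK392451) by -0.31 in WI+CS6h-CMJ versus WI-CMJ (limma adjusted p = 0.0679), none of which passed the test.

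The paralogs were not called. RPL3L, the counterpart of RPL3 in heart and skeletal muscle, was 6.08, 6.1, 5.99, 6.13 and 6.38 in Ctl-C, 7.06, 6.65, 6.51, 6.08 and 6.8 in WI+CS6h-C, and lastly 6.76, 6.96, 6.18, 6.83 and 6.26 in WI+CS24h-C. The cold storage arrays spread upward from the control range and overlapped it. The difference was 0.49 after 6 h (SE 0.18, limma adjusted p = 0.14) and 0.46 after 24 h (limma adjusted p = 0.214), and in CMJ 0.27 and 0.21. When 1 array was left out, the CMJ values ran from 0.15 to 0.38 after 6 h and from 0.07 to 0.35 after 24 h. The 24 h difference of RPL3L in cortex was 0.82 within scan day 1 and 0.02 within scan day 2. The summed signal of 5 skeletal muscle markers had a median of 142 in Ctl-C, 379 in WI+CS6h-C and of 445 in WI+CS24h-C, and of 189, 451 and 504 in the same groups of CMJ, while MYH2 was not well above background on any array. CKM was the only gene of this list that limma called, at 2.14 and 2.33 for the identifier AK398294 in cortex versus control, and the median over the 6 identifiers of the list was 0.225 and 0.268. The part of muscle in the RPL3L values was not tested. RPL7L1 had group means between 11.04 and 11.18, and its highest cold storage array in each group was the 1 numbered 5. RPL26L1 lay within 0.14 of control in all 6 comparisons.

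No member was called between the 2 tissues. In Ctl-CMJ versus Ctl-C, WI-CMJ versus WI-C, WI+CS6h-CMJ versus WI+CS6h-C and WI+CS24h-CMJ versus WI+CS24h-C none of the 73 was called by limma, beside 0.312%, 0.671%, 0.0807% and 0% of all identifiers. The numbers with an unadjusted p under 0.05 were 2, 1, 3 and 0. The members' median was 0.041 in controls, 0.006 after WI, -0.079 after 6 h and -0.042 after 24 h, with -0.041 over all identifiers after 6 h. Over the alternatives other than leaving out 1 array, the control median ran from -0.062 to 0.077. That after WI ran from -0.049 to 0.036, so the sign of these 2 was not settled. The test of the difference between tissues in the response also called none, beside 0% of all identifiers for each of the 3 treatments, with 0, 4 and 3 members at an unadjusted p under 0.05. Its medians were -0.041, -0.121 and -0.075 after WI, 6 h and 24 h. Within scan days 1 and 2 the 24 h median was -0.176 and 0.028, and that of WI+CS24h-CMJ versus WI+CS24h-C was -0.104 and 0.038, so neither kept its sign. With the 75th percentile scaling the medians of the response were -0.273 after 6 h and -0.209 after 24 h, and with quantile normalization within groups they were -0.13 and 0.003.

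A mean over the 50 genes whose brightest identifier had a signal of 10 or more was taken on each array to show the values by sample. In the order Ctl, WI, WI+CS6h and WI+CS24h it was 14.17 ± 0.028, 14.21 ± 0.08, 14.19 ± 0.088 and 14.18 ± 0.13 (SD, n = 5) in cortex. In CMJ, in the same order, it was 14.22 ± 0.084, 14.23 ± 0.022, 14.12 ± 0.052 and 14.14 ± 0.089. The cold storage groups of CMJ lay lowest and overlapped the control arrays. The WI+CS6h-CMJ arrays, between 14.034 and 14.164, lay wholly under those of WI-CMJ, between 14.19 and 14.245. Those of WI+CS24h-CMJ, between 14.005 and 14.248, overlapped WI-CMJ.

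**Figure D5:**
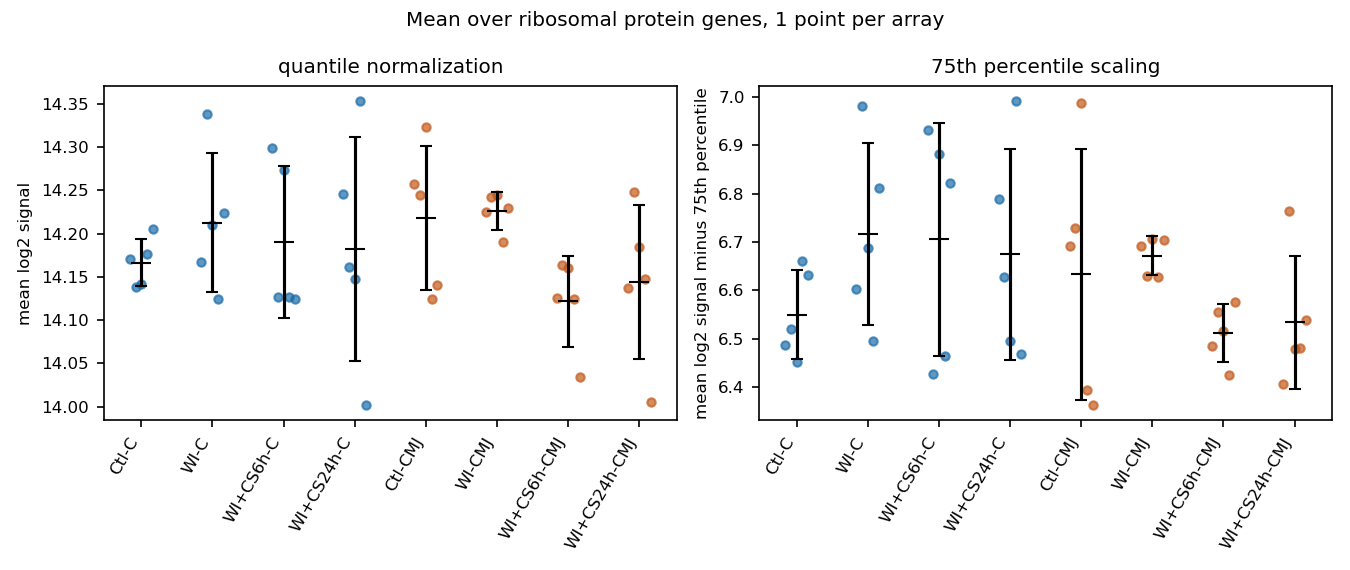
Mean log2 signal over the 50 ribosomal protein genes with a signal of 10 or more (vertical axis) on each array by group (horizontal axis), after quantile normalization on the left and relative to the 75th percentile of the array on the right, with 1 point per array and a bar and error bars at the mean and 1 SD of 5 arrays. The means run from 14.12 to 14.23 on the left and from 6.511 to 6.716 on the right. The groups overlap, except that WI+CS6h-CMJ lies wholly under WI-CMJ in both panels.

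Other genes of the pathway were set beside the members by lists. Of 13 identifiers of 9 other TOP mRNAs, such as translation elongation factors, none was called by limma versus control, beside 0.0946% to 4.02% of all identifiers over the 6 comparisons, and a list of this size would hold few calls at such a share. Their medians in CMJ were 0.045 after WI, -0.064 after 6 h and -0.034 after 24 h. Of 27 identifiers of 21 ribosome assembly genes, POLR1A, the largest subunit of RNA polymerase I, which makes ribosomal RNA, was the only 1 called versus Ctl-CMJ, where 0.687%, 3.19% and 3.65% of all identifiers were called after WI, 6 h and 24 h. It was higher by 0.69 after WI (limma adjusted p = 0.0182), 0.57 after 6 h (limma adjusted p = 0.0168) and 0.51 after 24 h (limma adjusted p = 0.0285). Of 16 identifiers of 15 genes that control translation, DDIT4, an inhibitor of mTORC1, was the only 1 called versus control, where 2.5% to 4.02% of all identifiers were called after cold storage. It differed by -1.06 and -1.05 in cortex (limma adjusted p = 0.00205 and 0.00259) and by -0.91 and -0.95 in CMJ (limma adjusted p = 0.00855 and 0.0056). EIF4G1, the scaffold of the cap-binding complex, was called versus WI but not versus control, where 1.2% to 2.85% of all identifiers were called versus WI. It was higher than in WI by 0.67 and 0.63 in cortex (limma adjusted p = 0.0161 and 0.0287) and by 0.84 and 0.69 in CMJ (limma adjusted p = 0.000517 and 0.00272). The members and these regulators are measured on the same arrays, and no relation between them was tested.

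Lists of genes like the members in kind were read in the same way. Of 19 identifiers of 18 mitochondrial ribosomal protein genes and 25 identifiers of 22 proteasome subunit genes none was called by limma versus control, beside the same shares of all identifiers. The medians of the mitochondrial genes were 0.107, 0.136 and 0.14 in cortex, compared with -0.002, 0.037 and 0.034 in CMJ after WI, 6 h and 24 h, and those of the proteasome were 0.098, 0.119 and 0.104 in cortex, compared with -0.03, -0.044 and -0.066 in CMJ. The reference genes for PCR were measured as well. ACTB differed from control by 0.19, 0.32 and 0.36 in cortex and by 0.25, 0.23 and 0.24 in CMJ without passing the test. PPIA was not called, and RPLP0 is given above.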

How the data were processed

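Total RNA of 40 biopsies was labelled with Cy3 and hybridised to 1-color Agilent pig arrays on 10 slides of 4 arrays, scanned on 2 days with 20 arrays each. The authors deposited 1 Agilent Feature Extraction 11.5.1.1 file per array, whose processed signal is a background-corrected intensity, and a matrix of normalized log2 values, which the authors made with limma in R 2.15.2 according to the submitters' processing notes. The processed intensity was used here, and the deposited log2 matrix served as an alternative. No genome build is given in the sources used here.

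Control spots and outlier flags were left out, log2 intensity was quantile normalized over the 40 arrays, and spots of 1 identifier were averaged (R 4.3.3, limma 3.58.1, data.table version 1.17.8). lmFit and eBayes were fitted on the 4 groups of a tissue, or on all 8 groups for comparisons between tissues, with Benjamini-Hochberg adjustment over all identifiers, and a difference was called at an adjusted p under 0.05 with a fold change of 0.5 or more in size on the log2 scale. The fit was tested on simulated data. Replicates of 1 group are separate kidneys. WI+CS6h and WI+CS24h come from the same 5 kidneys, and cortex and CMJ from the same 15, which the fits without a block do not use, and the number of arrays limits the precision.

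The members and lists were chosen with earlier results of these data known. A gene with several identifiers was represented by the brightest of those never saturated. This rule took another identifier than the brightest for 5 genes (RPL8, RPL32, RPS23, RPS28 and RPS29), so counts are given over identifiers, and the brightest identifier of each gene is used where stated. Named genes were taken from the markers RPL3, RPS6 and RPLP0, each called member, the 2 largest differences in each direction per comparison, the paralogs, the PCR reference genes and the called genes of the lists. RPL5, RPL6 and RPL13A, the probes shown and the account of the cold storage arrays numbered 5 were chosen after their values were seen. SDHA was not found by symbol. Of 82 ribosomal protein symbols of the RefSeq table, 52 were gene names on the array.

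Alternatives were the 75th percentile scaling, quantile normalization within groups or tissues, normexp background correction with an offset of 50, a filter for identifiers well above background on 5 arrays, the deposited matrix, other rules for genes and members, a replicate block, slide and scan day as terms, a fit within each scan day, the share of spots above background as covariate, fits on the compared groups alone, and leaving out each array. Leaving out the cold storage arrays numbered 5 together, and a fit of the 2 storage groups alone with a replicate block, were chosen after seeing the data.

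Arrays with the same number deviated together, with all 5 correlations of their deviations over 0.1, in WI+CS24h-CMJ versus WI+CS6h-CMJ (0.69 to 0.91), where the labels say that the kidneys are the same, and in WI+CS24h-CMJ versus WI+CS24h-C (0.28 to 0.8). In WI+CS24h-C versus WI+CS6h-C, which also comes from the same kidneys, 4 of 5 pairs were over 0.1 and the lowest was -0.42. In WI+CS6h-CMJ versus WI+CS6h-C 4 of 5 pairs were over 0.1 as well, with a median of 0.83 and a lowest of 0.08. In every other comparison at least 1 pair was lower than 0.1.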

Additional observations from a re-analysis of the deposited data

Results flagged for a closer look

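In groups of 5, a single array was marked when its gap to the nearest other array took more than 0.71 of the range of the group. This was looked at in 136 combinations of a value and a group and marked 19. RPL5, RPL6 and RPL13A were taken into it because of their values on the cold storage arrays numbered 5, so their 10 marks in 24 combinations were to be found by that choice. Without them 9 of 112 combinations were marked, and chance marks about 1 in 20 groups.

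On the cold storage arrays numbered 5, RPL13A was marked in all 4 cold storage groups, at 12.43 in WI+CS6h-C (nearest other array 13.74), 12.6 in WI+CS24h-C (13.76), 12.78 for WI+CS6h-CMJ (13.81) and 12.5 for WI+CS24h-CMJ (13.75). RPL5 was marked in WI+CS6h-C at 13.87 (14.44), in WI+CS6h-CMJ at 13.77 (14.41) and, for WI+CS24h-CMJ, at 13.73 (14.46), and RPL6 in WI+CS6h-CMJ at 13.17 (13.72) and WI+CS24h-CMJ at 13.12 (13.76). The share of array intensity held by the members was also marked, with 9.03% in WI+CS6h-CMJ (9.89%) and 8.78% for WI+CS24h-CMJ (10%).

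The other marks fell on single arrays. RPS15A was low on the array numbered 1 of WI-C, at 11.31 (11.96), and of WI-CMJ, at 11.42 (11.98). RPL5 was high on the array numbered 2 of WI-C, at 14.74 (14.51). RPL14 was low on the array numbered 4 of WI-CMJ for NM_001097478, at 13.33 (13.57), and on the array numbered 5 of Ctl-CMJ for AK348520, at 8.36 (8.76). The share of intensity was 10.11% on the array numbered 4 of WI-CMJ (10.76%). Among dim tags, RPL11 AK400685 was at 3.52 on the array numbered 2 of WI+CS24h-CMJ (3.98), and RPS23 FD588582 at 1.62 on the array numbered 3 of WI+CS24h-CMJ (2.76).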

How the results depend on the processing

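Small counts of called members moved with the processing, and no called value changed sign. Over all alternatives other than leaving out 1 array, 307 counts of identifiers stayed within 1.5 times and 48 did not, and 330 counts of genes by the rule did and 25 did not. In WI+CS6h-C versus Ctl-C the 1 called identifier and gene (RPS23) became 0 and 0 under the 75th percentile scaling, normexp, the deposited matrix, the brightest identifier, the mean of all identifiers, a scan day term, either scan day alone, the covariate, the compared groups alone and without the arrays numbered 5, and 3 identifiers and 2 genes with slide as a term. In WI-CMJ versus Ctl-CMJ the 1 identifier became 0 under the 75th percentile scaling, normexp, the deposited matrix, the brightest identifier, the mean of identifiers, slide, scan day 1 and the covariate, and 2 within groups and on scan day 2, and the 0 genes became 1 within groups, 2 on scan day 2 and 1 with the compared groups alone. For WI+CS6h-CMJ versus Ctl-CMJ, 0 identifiers became 1 on scan day 2 and 1 with the covariate. For WI+CS24h-CMJ versus Ctl-CMJ, 1 identifier became 2 under the 75th percentile scaling, 3 within groups, 2 without the arrays numbered 5, and 0 under normexp, the deposited matrix, the brightest identifier, the mean of identifiers, slide, either scan day and the compared groups alone, and the 0 genes became 1, 2 and 1 in the first 3 of these. In WI+CS6h-CMJ versus WI-CMJ the 1 identifier became 2 under the 75th percentile scaling, within groups and with the deposited matrix, 3 on scan day 2, and 0 under normexp, the brightest identifier, scan day 1 and the covariate, and the 0 genes became 1 under the 75th percentile scaling, the deposited matrix, the mean of identifiers and slide, and 2 on scan day 2. In WI+CS24h-CMJ versus WI-CMJ the 1 identifier became 0 under normexp, the brightest identifier, scan day 1 and the compared groups alone, and the 0 genes became 1 with the mean of identifiers. The causes were not tested.

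Leaving out 1 array at a time gave 0 to 3 identifiers and 0 to 2 genes in WI+CS6h-C versus Ctl-C, 0 to 3 and 0 to 2 in WI-CMJ versus Ctl-CMJ, 0 to 1 and 0 to 1 in WI-C versus Ctl-C, 0 to 2 and 0 to 1 in WI+CS6h-CMJ versus Ctl-CMJ, 0 to 2 identifiers in WI+CS24h-CMJ versus Ctl-CMJ, 1 to 2 and 0 to 1 in both CMJ comparisons of cold storage with WI, and 0 to 1 identifiers in WI+CS6h-CMJ versus WI+CS6h-C. With the array number as a block, the 1 called identifier and gene of WI+CS6h-C versus Ctl-C became 0, and no other count of called members changed. In comparisons with Ctl or WI this number joins arrays of different kidneys, so the block is no pairing there.

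The RPL14 identifier NM_001097478 passed the fold limit in WI+CS6h-CMJ versus WI-CMJ, so that it was called, under the 75th percentile scaling (-0.51), with the deposited matrix (-0.52), with slide as a term (-0.51) and on scan day 2 (-0.55), as well as without the WI-CMJ array numbered 4 (-0.54). Versus Ctl-CMJ after 6 h it ran from -0.5 to -0.34 over the alternatives other than leaving out 1 array, and reached -0.52, past the fold limit, without the Ctl-CMJ array numbered 5. AK348520 was not called versus WI-CMJ after 6 h under normexp (-0.45), on scan day 1 (-0.41), with slide as a term (-0.64, limma adjusted p = 0.0912) and with the covariate (-0.57, limma adjusted p = 0.0517), nor after 24 h under normexp (-0.48), on scan day 1 (-0.48) and with the compared groups alone (-0.63, limma adjusted p = 0.051). The medians of the members in CMJ after cold storage stayed under 0 in every alternative, from -0.126 to -0.017 after 6 h and from -0.1 to -0.01 after 24 h versus Ctl-CMJ. Those of cortex did not keep 1 sign. Quantile normalization within groups moved the median of all identifiers by more than 0.1 in several comparisons, such as -0.133 in WI-C versus Ctl-C. In cortex after 6 h, RPL3L was called versus control with slide as a term (0.6, limma adjusted p = 0.0266) and without the array numbered 4 of WI+CS6h-C (0.62, limma adjusted p = 0.0353). Saturation limits the 13 identifiers with a saturated spot, of which those of RPS20, RPLP1 and RPS28 were saturated on all 40 arrays, those of RPLP2 and RPS29 on 39, and those of RPL5 and RPL6 on 4 and 13, and background limits the 9 identifiers with a mean under 5.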
